A study of Homo sapiens with 12 samples.

Results

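The genes described here are 4 of the 17589 genes in the table: HSD11B1, NR3C1, FKBP5 and TSC22D3. They were chosen by symbol as genes of cortisol activation, its receptor and direct receptor targets, with their expression in these libraries already known, so their own levels are given as a description without a test. RNA-seq was made from unstimulated cells of YT, a human NK-like lymphoid line, after lentiviral transduction. CTRL cells carried eGFP, hnCD16 cells carried a CD16a with a high-affinity, non-cleavable ectodomain, FR1 cells carried that ectodomain fused to the signaling domains of 2B4, DAP10 and CD3ζ, and FR2 cells carried it fused to those of DAP10 and CD3ζ. The receptors were driven by the constitutive hEF1A promoter, and eGFP-positive cells of every group were sorted and expanded. Each of the 4 groups had 3 libraries. The culture medium contained serum, and no glucocorticoid was named among its additions.

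Cortisol acts through the glucocorticoid receptor, encoded by NR3C1, which waits in the cytosol in a complex with HSP90 and its co-chaperones and moves to the nucleus once it binds the hormone. 11β-hydroxysteroid dehydrogenase type 1, the product of HSD11B1, regenerates cortisol from inactive cortisone inside the cell, whereas the type 2 enzyme, HSD11B2, does the reverse. The bound receptor raises transcription of genes such as FKBP5, whose product is a co-chaperone that lowers the hormone affinity of the receptor, and TSC22D3, which encodes the anti-inflammatory protein GILZ, and it restrains many cytokine genes.

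The libraries held 17714566 to 18729019 counts, so that 3 counts, used here as the floor of detection, correspond to 0.149 to 0.174 CPM (counts scaled to TMM library sizes, the scale of every CPM here). The floor covers counting error only. FCGR3A, whose sequence the receptors carry, had 0 counts in all CTRL libraries and mean levels of 25 CPM (hnCD16), 32.4 CPM (FR1) and 61.3 CPM (FR2). The FR1 and FR2 libraries stood apart from CTRL and hnCD16 in markers of cell type. The summed level of 15 NK cell markers was 111 to 114 CPM in CTRL and 112 to 118 in hnCD16, with 2036 to 2164 in FR1 and 2101 to 2202 in FR2, and NCR1, the gene of the NK receptor NKp46, had 0 to 5 counts in CTRL and 0 to 1 in hnCD16. KLRF1 was at or under 3 counts in every library and TYROBP in those of FR1 and FR2. Of the 13 NK markers tested in edgeR, 12 were called in FR1 and in FR2 against hnCD16, beside 38.3% and 39.5% of all genes. Of these, 9 were higher, and NCR3, CD226 and CD7 were lower in both FR groups. The 7 T cell markers in the table summed to 659 to 773 CPM in CTRL and 742 to 800.0 in hnCD16, against 128 to 133 in FR1 and 157 to 169 in FR2, and CD3D had 439 ± 46.6 CPM (mean ± SD, n = 3, as in all such values) in CTRL but 0 to 2 counts in FR1. All 7 were called against hnCD16 in both FR groups, with CD28 higher and the other 6 lower. The CTRL and hnCD16 libraries went against the NK-like label in these summed NK and T cell markers. The summed B cell markers were higher in the FR groups, at 9.19 to 14.7 CPM in CTRL and hnCD16 against 38.3 to 47.4 in FR1 and FR2. PAX5 carried that rise, and CD79A and CD79B were called lower in edgeR. Monocyte and macrophage markers summed to 202 to 227 CPM in CTRL and 219 to 250.0 in hnCD16, with 8.49 to 11.1 in FR1 and 12.9 to 15 in FR2, with CD14 at or under 3 counts in every library. That sum was carried by AIF1, at 227 CPM in hnCD16 and 0.23 in FR1, whereas ITGAM and CSF1R were called higher in both FR groups, with 0.232 and 0.647 CPM in hnCD16 against 1.88 and 1.96 in FR1. Fibroblast markers, in whose cells HSD11B1 is often expressed, summed to 0.0511 to 0.531 CPM in CTRL and hnCD16. They summed to 3.88 to 5.09 CPM in FR1 and 6.71 to 7.32 in FR2. These sums were higher in both FR groups, with FR2 above FR1, whereas HSD11B1 was higher in FR1. Of the 6 fibroblast markers listed, 4 are in the table and 2 were tested. PDGFRB made up most of the FR sums, at 3.96 CPM in FR1 and 5.75 in FR2, and was called in both against hnCD16. COL1A1 was called in FR2 only and was at or under 3 counts in FR1. DCN was at or under 3 counts in every library. The single markers named here were chosen after their values were seen, and the part of these cell types in the results was not tested. Each comparison between an FR group and either CTRL or hnCD16 runs across this split, so the fusion receptor and the difference between these sets of libraries cannot be told apart, and no such comparison can be repeated without those libraries.

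HSD11B1 lies on chromosome 1 at 209686178 to 209734949 (plus strand), NR3C1 on chromosome 5 at 143277931 to 143435512 (minus strand), FKBP5 on chromosome 6 at 35573585 to 35728583 (minus strand) and TSC22D3 on chromosome X at 107713221 to 107777342 (minus strand), all in GENCODE v44 on GRCh38, and all are protein-coding. The 250 bases before the start of HSD11B1, the gene that separated the groups most sharply, and before the upstream start of FKBP5, the receptor target that was expressed, are shown from RefSeq on GRCh38.p14, read 5′ to 3′ along the gene.
HSD11B1 chr1:209685929-209686178 (plus strand): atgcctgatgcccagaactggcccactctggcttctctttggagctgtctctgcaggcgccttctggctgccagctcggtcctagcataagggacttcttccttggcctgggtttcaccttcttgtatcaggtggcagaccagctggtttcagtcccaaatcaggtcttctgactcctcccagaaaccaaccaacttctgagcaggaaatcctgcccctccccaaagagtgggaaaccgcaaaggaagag
FKBP5 chr6:35728584-35728833 (minus strand): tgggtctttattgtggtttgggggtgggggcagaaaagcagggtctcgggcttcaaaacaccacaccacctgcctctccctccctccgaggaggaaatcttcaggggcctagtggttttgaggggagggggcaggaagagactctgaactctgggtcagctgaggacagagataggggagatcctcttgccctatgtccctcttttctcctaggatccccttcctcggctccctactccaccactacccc
Motifs were searched on both strands. Neither window held the glucocorticoid response element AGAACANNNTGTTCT, its inner part ACANNNTGT, its single arm AGAACA or the C/EBP motif TTGCNNAA, which says only that these letters are not in these windows. Of the 14 windows at annotated starts of the 4 genes, 1 of the 4 for TSC22D3 held the inner part and 1 of the 7 for NR3C1 held the C/EBP motif, and the other 12 held none of these motifs. Of 35116 windows of 250 bases before annotated starts, 0.00285% held the full element, 4.61% its inner part, 12.4% the single arm and 9.05% the C/EBP motif. The full element contains both its inner part and its single arm.

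HSD11B1 RNA was found in FR1 and FR2 and in no library of the other groups. Its counts were 1424, 1367 and 1368 in the FR1 libraries and 576, 600 and 520 in FR2, and 0 in each of the CTRL and hnCD16 libraries. Scaled by TMM library sizes, its level was 82.4, 79 and 78.1 CPM in FR1 and 32.2, 33.9 and 29.7 CPM in FR2. The lowest FR1 library lay well above the highest FR2 library, and the FR1 level exceeded the FR2 level by 1.32 (SE 0.0627) on the log2 scale. Against the floor of 3 counts per library, the mean level in FR1 was at least 529-fold higher than in CTRL and 494-fold higher than in hnCD16, and that in FR2 at least 212-fold and 198-fold higher. The table has a single transcript of the gene, NM_005525, and all counts were assigned to it. Per transcript length, HSD11B1 reached 99.2 to 103 TPM in FR1, higher than 91.4% or more of the genes in the table, and 37.8 to 42.5 TPM in FR2.

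The genes next to HSD11B1 differed in their patterns. TRAF3IP3, the neighbour with the highest level, had 39 TPM in CTRL and 34.1 in hnCD16, with 215 in FR1 and 171 in FR2, a log2 fold change of 2.40 for FR1 against hnCD16 (edgeR quasi-likelihood test, Benjamini-Hochberg adjusted p = 8.56e-17). LAMB3, a laminin gene, went from 0.0667 TPM in hnCD16 to 2.34 in FR1. G0S2 was at or near 0 TPM in every group. An antisense gene, HSD11B1-AS1, overlaps HSD11B1, and since the use of strand in counting is not stated, reads of the pair cannot be told apart.

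The enzymes that work with or against HSD11B1 did not follow it. H6PD, which supplies the NADPH that lets HSD11B1 run toward cortisol, was expressed in all groups at 24.6 ± 1.52 CPM in CTRL and 21.1 ± 1.55 in hnCD16, with 20.2 ± 0.338 in FR1 and 33.7 ± 1.19 in FR2. Per length, HSD11B1 stood at 28.6 to 31.2 times the TPM of H6PD in FR1 and at 6.24 to 7.14 times in FR2. HSD11B2, the enzyme that inactivates cortisol, had 1 to 2 counts in CTRL, 1 in each hnCD16 library, 0 to 1 in FR1 and 0 to 2 in FR2. HSD11B1L, a relative of HSD11B1, had 0.959 ± 0.139 CPM in FR1 and 2.94 ± 0.515 in FR2, the opposite order to HSD11B1, with a log2 fold change of -1.61 (SE 0.22) between them (adjusted p = 2.99e-05, edgeR).

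NR3C1, the receptor gene, was expressed in every library. Its level was 77.1, 80.3 and 84.7 CPM in CTRL and 77.9, 85 and 89.9 in hnCD16, with 129, 138 and 133 in FR1 and 111, 110.3 and 107 in FR2. The ranges of CTRL and hnCD16 overlapped, all FR2 libraries lay above both, and all FR1 libraries lay above FR2. The log2 fold changes were 0.66 (SE 0.0564) for FR1 against hnCD16, 0.38 (SE 0.0567) for FR2 against hnCD16 and 0.28 (SE 0.0559) for FR1 against FR2, all under the 2-fold threshold used for calls. Against CTRL, which shares the FR libraries with those comparisons, they were 0.72 for FR1 and 0.44 for FR2. The small difference between hnCD16 and CTRL, 0.06, changed sign with library size scaling. In TPM the receptor gene stood at 22.1 to 26.6 in CTRL and 20.5 to 25.3 in hnCD16, with 32.8 to 35.1 in FR1 and 27.7 to 29.1 in FR2, so the ranges of the FR groups lay above the others on this scale too.

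The table splits NR3C1 over 23 transcripts, 18 of which entered the test of transcript usage, and 1 of them, NM_001364183, differed between the groups. Its share of NR3C1 counts was 12.5%, 18.2% and 16.6% in the CTRL libraries and 18.6%, 19.8% and 24.1% in hnCD16, and 0% in all FR1 and FR2 libraries. With a floor of 3 counts, a share of up to 0.135% in FR1 and 0.16% in FR2 would have gone unseen. In edgeR's diffSpliceDGE, the adjusted p over all transcripts was 0.00444 for FR1 against hnCD16, 0.0055 for FR2 against hnCD16, 0.00595 for FR1 against CTRL and 0.00727 for FR2 against CTRL, where 1.01%, 1.17%, 1.14% and 1.19% of the 53005 transcripts tested were called. None of the 18 tested transcripts of NR3C1 and the 4 of FKBP5 was called for hnCD16 against CTRL or for FR1 against FR2, where 0.0547% and 0.0453% of transcripts were called, and 2 and 1 of these transcripts had an unadjusted p under 0.05. No transcript of HSD11B1 or TSC22D3 entered that test. The calls rest on few libraries, since those of FR1 and FR2 against CTRL were each lost without replicate 2 or without replicate 3 of the FR group, and that of FR1 against hnCD16 was lost without FR1 replicate 3. The comparisons share libraries and are the ones in which the genes were chosen, and RSEM divided reads among transcripts that have most of their sequence in common.

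**Figure D1:**
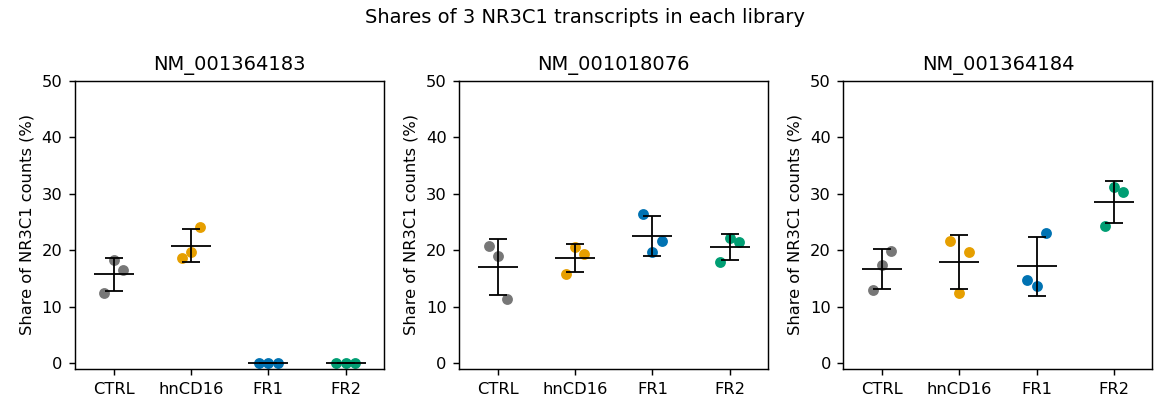
Share of NR3C1 expected counts (%) assigned to 3 transcripts, NM_001364183 and the pair with the highest mean shares in FR1 and FR2, with a point per library and the mean ± SD of 3 libraries in black. NM_001364183 sits at 0% in all FR1 and FR2 libraries, while the shares of the other transcripts spread widely within groups.

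NR3C2, which encodes the mineralocorticoid receptor and also binds cortisol with high affinity, was near the floor in CTRL and hnCD16 and was expressed in FR1 and FR2. It had 7 to 17 counts in CTRL and 6 to 11 in hnCD16, against 60.4 ± 3.31 CPM in FR1 and 75.4 ± 4.67 CPM in FR2. The log2 fold change was 6.89 (SE 0.15) for FR1 and 7.21 (SE 0.14) for FR2 against hnCD16 (edgeR adjusted p = 1.39e-17 and 4.93e-18). Per length, NR3C2 reached 0.496 to 0.568 times the TPM of NR3C1 in FR1 and 0.737 to 0.836 times in FR2. PGR, which encodes the progesterone receptor, had at most 3 counts in any library.

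FKBP5, the receptor target and co-chaperone, was expressed in every group and was highest in FR1 and FR2. Its level was 221, 209 and 203 CPM in CTRL and 194, 194 and 181 in hnCD16, with 535, 542 and 530.1 in FR1 and 519, 497 and 495 in FR2. All libraries of FR1 and FR2 lay above all libraries of CTRL and hnCD16, and each hnCD16 library lay below each CTRL library. The log2 fold change was 1.50 (SE 0.048) for FR1 against hnCD16 and 1.41 (SE 0.0479) for FR2 against hnCD16, and 1.34 and 1.25 against CTRL. Between FR1 and FR2 it was 0.09 (SE 0.0465), and that of HSD11B1 was 1.32. A link between the levels of these genes was not tested. In bulk RNA, more cells expressing a gene and more RNA per cell cannot be told apart, for this gene or any other here. Most FKBP5 counts went to NM_004117 in every group, with mean shares of 93.9% in CTRL and 95.1% in hnCD16, with 96% in FR1 and 95.5% in FR2.

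FKBP4, which encodes the co-chaperone FKBP52 that competes with the FKBP5 product for the receptor complex, also rose against hnCD16, by 1.20 (SE 0.0491) in FR1 and 1.12 (SE 0.0491) in FR2 (edgeR adjusted p = 1.69e-13 and 3.96e-13). Its changes against CTRL, 0.72 and 0.64, were under the 2-fold threshold. The ratio of FKBP5 to FKBP4 in TPM was 1.15 to 1.17 in CTRL and 1.41 to 1.54 in hnCD16, with 1.76 to 1.87 in FR1 and 1.74 to 1.86 in FR2, so FKBP5 exceeded FKBP4 in every library.

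TSC22D3 was close to the floor in all 12 libraries, in contrast to FKBP5. It had 5, 4 and 5 counts in CTRL and 1, 1 and 0 in hnCD16, with 5, 1 and 3 in FR1 and 2, 5 and 4 in FR2. It did not pass the filter on low counts, so 3 of the 4 genes have fitted fold changes and TSC22D3 was not tested. Each CTRL library lay above each hnCD16 library, at counts close to the floor in CTRL and under it in hnCD16. The lowest FR1 library had 1 count, as did the highest hnCD16 library, and the range of CTRL overlapped those of FR1 and FR2. Its relatives were expressed. TSC22D4 rose from 21.7 ± 1.17 CPM in hnCD16 to 125 ± 3.83 in FR1 and 123 ± 4.74 in FR2, with log2 fold changes of 2.52 (SE 0.0644) and 2.50 (SE 0.0644) (edgeR adjusted p = 1.79e-16 and 2.03e-16). TSC22D1 and TSC22D2 did not reach the 2-fold threshold in any comparison of counts, although TSC22D1 stood lower per length, at 3.16 TPM in FR1 against 9.54 in hnCD16.

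Per length, the order of the 4 genes in FR1 was FKBP5 (239 TPM), HSD11B1 (101 TPM), NR3C1 (34.2 TPM) and TSC22D3 (0.153 TPM), and FR2 had the same order. In CTRL, FKBP5 (109 TPM) was followed by NR3C1 (24.3 TPM) and TSC22D3 (0.267 TPM), with HSD11B1 listed at 0. No neighbours in these orders overlapped in their ranges over libraries, whereas in hnCD16, where FKBP5 and NR3C1 led in the same order, TSC22D3 and HSD11B1 overlapped at 0. Over the 12 libraries, the tested genes whose log2(CPM + 1) correlated best with HSD11B1 were FGR (r = 0.9991), ANKRD30A (r = 0.9986) and CD5L (r = 0.9985). Those nearest to NR3C1 were VIRMA (r = 0.9964), PARP4 (r = 0.9943) and ZHX1 (r = 0.9898), and those nearest to FKBP5 were UBE2Q1 (r = 0.9991), LY6E (r = 0.9989) and UAP1L1 (r = 0.9989). These Pearson correlations are a description, since the libraries fall into separate clusters, and 213 tested genes reached an r of at least 0.99 with HSD11B1, 2 with NR3C1 and 649 with FKBP5.

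Beyond these genes, 105 other genes of the pathway were listed in 5 groups, of which 98 are in the table and 82 passed the filter. A gene was called where it differed by 1 or more on the log2 scale with an adjusted p no higher than 0.05 in edgeR's quasi-likelihood test. A gene absent or at a few counts outside the FR libraries, or outside CTRL and hnCD16, could pass the filter only through them. The direction of such a gene was fixed by that, so its call is a description. Such genes are part of the counts of calls below, and of the shares over all genes. For FR1 against hnCD16, 40 of the 82 were called, 26 higher and 14 lower in FR1, where 38.3% of all 13657 tested genes were called (18.7% higher and 19.6% lower). For FR2 against hnCD16, 41 were called, 27 higher and 14 lower, against 39.5% of all genes (19.6% and 19.8%). Against CTRL the counts were 46 for FR1 and 40 for FR2, with 38.0% and 38.2% of all genes called (18.3% and 18.7% higher, 19.8% and 19.6% lower). The median log2 fold change of the 82 genes was 0.13 for FR1 and 0.08 for FR2 against hnCD16, beside -0.01 and -0.03 over all tested genes. The cell type markers above differ across the same comparisons, and their part in these counts was not tested.

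Among genes of ligand metabolism and transport, all 5 called genes of 10 tested (50%) were lower in FR1 than in hnCD16, and likewise all 5 in FR2, where 38.3% and 39.5% of all genes were called in the same comparisons. ABCB1, which encodes the efflux pump P-glycoprotein that exports several glucocorticoids, had 46.8 ± 1.99 CPM in hnCD16 but 2 to 5 counts in FR1 and 20 to 36 counts in FR2. The log2 fold change was -7.88 (SE 0.17) in FR1 and -4.81 (SE 0.12) in FR2 (adjusted p of edgeR = 1.54e-17 and 7.36e-17). AKR1C3, a steroid reductase gene, fell from 37.2 ± 1.59 CPM in hnCD16 to 0.46 ± 0.17 in FR1 and 0.529 ± 0.26 in FR2, and AKR1C1 had 55 to 65 counts in hnCD16, 0 in all FR1 libraries and 0 to 4 in FR2. The AKR1C genes are near-identical copies between which reads can be misassigned, so their single values are uncertain. SRD5A3, a member of the steroid 5α-reductase family, was named after its values were seen and fell by 1.97 in FR1 and 1.90 in FR2 on the log2 scale.

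Among the 18 tested genes of the receptor complex and chaperones, 3 (16.7%) were called for FR1 against hnCD16, all higher, and 3 (16.7%) for FR2, 2 higher and 1 lower, beside 38.3% and 39.5% of all genes. These were NR3C2 and FKBP4 in both, with BAG1, whose product binds the receptor through HSP70, higher in FR1 by 1.11 (SE 0.051). HSP90AA1, the inducible HSP90 that holds the receptor ready for hormone, was lower in FR2, at -1.35 (SE 0.0968) on the log2 scale (edgeR adjusted p = 4.85e-10) and at -0.74 (SE 0.0956) in FR1. The median log2 fold change of the 18 genes was 0.08 in FR1 and -0.25 in FR2.

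Among coregulators, 5 of 19 tested genes (26.3%) were called for FR1 and 5 for FR2 against hnCD16, 4 higher and 1 lower in each, beside 38.3% and 39.5% of all genes. The median log2 fold change of the 19 genes was -0.22 in FR1 and -0.28 in FR2. The steroid receptor coactivators NCOA1, NCOA2 and NCOA3 rose by 2.13, 1.59 and 1.48 in FR1 and by 2.19, 1.07 and 2.17 in FR2 on the log2 scale. PPARGC1A, which encodes the coactivator PGC-1α, had 0 to 2 counts in hnCD16, 7.39 ± 0.29 CPM in FR1 and 4.22 ± 0.633 CPM in FR2. It could pass the filter only through the FR libraries, so its direction was fixed beforehand. NRIP1, a corepressor of nuclear receptors, was the called gene that fell, from 43 ± 12.2 CPM in hnCD16 to 0 counts in all FR1 libraries, at least 249-fold lower, and 0 to 1 counts in FR2.

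Genes usually induced by glucocorticoid were called in both directions. Of 26 tested, 18 (69.2%) were called for FR1 against hnCD16, 11 higher and 7 lower, and 19 (73.1%) for FR2, 13 higher and 6 lower, beside 38.3% and 39.5% of all genes. The list's median was 0.94 in FR1 and 0.94 in FR2. The highest were IL1R2, a decoy receptor for interleukin-1, with 0 counts in all CTRL and hnCD16 libraries and 3.4 ± 0.325 CPM in FR1, and CEBPD, a transcription factor gene, with 1 to 3 counts in hnCD16 and 62.5 ± 4.3 CPM in FR1 and 81.4 ± 6.88 CPM in FR2. BCL6, a transcriptional repressor, had 0 to 4 counts in hnCD16, 45.7 ± 3.0 CPM in FR1 and 87.2 ± 1.54 CPM in FR2. IL1R2, CEBPD and BCL6 could pass the filter only through the FR libraries, so their direction was fixed beforehand. SGK1, a kinase gene that both NR3C1 and NR3C2 products induce, was named after its values were seen and went from 1.63 ± 0.234 CPM in hnCD16 to 303 ± 9.28 in FR1 and 296 ± 9.31 in FR2.

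The lowest of the induced group were CXCR4, a chemokine receptor, BCL2L11, which encodes the death protein BIM, and ZBTB16, a transcription factor gene. CXCR4 fell from 303 ± 13.1 CPM in hnCD16 to 0.23 ± 0.0977 in FR1 and 0.62 ± 0.292 in FR2, BCL2L11 from 14.2 ± 1.82 to 0.288 ± 0.116 and 0.207 ± 0.118, and ZBTB16 from 2.27 ± 0.484 to 0.0769 ± 0.0336 and 0.283 ± 0.10. The fall of ZBTB16 did not pass with limma on log2(TPM + 1), where its log2 fold changes were -0.56 and -0.49. PER1, a clock gene that responds to the receptor in many tissues, was not called, at -0.20 (SE 0.13) in FR1 and 0.05 (SE 0.13) in FR2 (edgeR adjusted p = 0.174 and 0.722), and was also named after its values were seen. In the same FR libraries FKBP5 was on the higher side and TSC22D3 at the floor.

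Most tested genes usually repressed by glucocorticoid were higher in the FR groups, where HSD11B1 was expressed. Of 15 listed, 12 are in the table and 9 passed the filter on low counts. All 9 were called in FR1 and in FR2 against hnCD16, 8 higher and 1 lower in each, beside 38.3% and 39.5% of all genes. Genes absent or at a few counts in CTRL and hnCD16, such as CSF2, IFNG and CCL3, could pass the filter only through the FR libraries. Their direction was fixed beforehand. IFNG, the gene of interferon-γ, had 0 to 2 counts in hnCD16 and 241 ± 16.6 CPM in FR1 and 225 ± 0.91 in FR2. CSF2, which encodes GM-CSF, had 0 counts in CTRL and hnCD16, and its FR1 level was at least 54-fold higher than in hnCD16 and its FR2 level at least 38.8-fold higher. CCL3, a chemokine gene with near-identical copies and so uncertain, had 0 counts in hnCD16, 61.9 ± 3.52 CPM in FR1 and 5.46 ± 0.973 CPM in FR2. TNF was the called gene that fell, from 11.3 ± 0.857 CPM in hnCD16 to 0 to 1 counts in FR1 and 0 in all FR2 libraries. Several of these genes are also products of activated NK cells, whose summed markers rose in the same libraries, and the part of that difference was not tested.

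C/EBP factors bind promoters of HSD11B1 in other cell types. Besides CEBPD, CEBPB had 13.9 ± 2.14 CPM in hnCD16 against 28.1 ± 2.16 (FR1) and 26.8 ± 1.31 (FR2), a log2 fold change of 1.01 (SE 0.0981) in FR1 that passed the threshold and 0.95 (SE 0.0984) in FR2 that did not. The FR1 call was lost without hnCD16 replicate 2 (0.91) and without FR1 replicate 1 (0.97). CEBPE fell from 7.66 ± 0.501 CPM to 0 to 3 counts in FR1 and 0 to 1 in FR2, CEBPG was not called, and CEBPA had at most 1 count in any library. DDIT3, also of this family, was not called against hnCD16. Against CTRL it was called higher, by 1.37 in FR1 and 1.21 in FR2 on the log2 scale. Over the alternatives its change ranged from 1.10 to 1.40 in FR1 and from 0.93 to 1.26 in FR2.

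Comparing hnCD16 with CTRL, 1 of the 82 pathway genes was called, where 0.527% of all genes were (0.212% higher and 0.315% lower). It was IL2RA, the interleukin-2 receptor α chain, with 9 to 16 counts in CTRL and 4 to 6 in hnCD16 and a log2 fold change of -1.18 (SE 0.31) (edgeR adjusted p = 0.013). The call was lost without CTRL replicate 2 and without hnCD16 replicate 2, which left 0 genes. None of HSD11B1, NR3C1 and FKBP5 reached a 2-fold difference between these groups.

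Comparing FR1 with FR2, 7 of the 82 pathway genes were called, 2 higher and 5 lower in FR1, where 1.93% of all genes were called (0.439% higher and 1.49% lower). CCL3 and CCL4 were higher in FR1, by 3.50 (SE 0.10) and 3.67 (SE 0.25) on the log2 scale. IL2RA was lower in FR1, at 82.4 ± 3.08 CPM against 181 ± 2.55 in FR2, a log2 fold change of -1.13 (SE 0.0511) (edgeR adjusted p = 2.44e-10). ABCB1, ZBTB16 and CXCR4 were also lower, at low counts in both groups, with log2 fold changes of -3.07 (SE 0.35), -1.79 (SE 0.68) and -1.41 (SE 0.44). The ZBTB16 call was lost with DESeq2 and when any library but FR2 replicate 1 was left out, and the CXCR4 call without FR1 replicate 1, FR1 replicate 2 or FR2 replicate 1. ABCB1 stayed between -3.50 and -2.84 when 1 library was left out. Over all alternatives the smallest changes were -0.54 for ABCB1, -0.06 for ZBTB16 and -0.39 for CXCR4. These are under the 2-fold threshold, so none of these 3 calls held under every alternative. In this comparison HSD11B1 and IL2RA differed by over 2-fold, and FKBP5 and NR3C1 differed by less. Both groups had high summed NK markers, but 2 of 13 tested NK markers (15.4%), NCR3 and GNLY, were called higher in FR1. CSF1R and COL1A1 were called lower in FR1, and no tested T or B cell marker was called. The part of these markers was not tested.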

How the data were processed

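The 12 libraries were grouped by their labels into CTRL, hnCD16, FR1 and FR2. The authors cleaned reads (SOAPnuke), aligned them by HISAT2 2.1.0 against GRCh38.p13 and deposited expected counts and TPM from RSEM 1.3.1, per gene and per transcript. Per the labels, both rRNA depletion and oligo(dT) beads were used. Of each deposited file, 40 further value columns (FPKM, normalized counts, averages) were not used. Expected counts were rounded. Genes passing filterByExpr (13657) entered 1 model of all 4 groups in edgeR 4.0.16 (R 4.3.3), scaled by TMM and tested by quasi-likelihood, in place of the DESeq2 test of the authors, with Benjamini-Hochberg adjustment in each of 6 comparisons. Transcript usage was tested with diffSpliceDGE. Both steps were tested on simulated data, with the same low spread for every transcript and switches only in well-expressed pairs. Real NR3C1 transcripts varied more, such as NM_001204258 with 0, 294 and 92.9 counts in the CTRL libraries. The simulation therefore cannot show how the usage test performs on them. Nothing in the labels says that replicates were separate cultures, so p-values measure the spread between these libraries. Replicates differed by more than sampling noise.

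The genes and lists were chosen with earlier results of these data known. Named genes are the 4 genes, their relatives, C/EBP genes, and in each pathway list the called genes with the 3 highest and 3 lowest log2 fold changes in FR1 and in FR2 against hnCD16, with a mean of at least 1 CPM. For hnCD16 against CTRL and FR1 against FR2, called genes were named up to 5, or else the 3 highest and 3 lowest. One listed relative is not reported here. Alternatives were limma 3.58.1 with log2(TPM + 1) or log2(TPM + 0.1) values, DESeq2 1.42.0, other normalizations and filters, fits of 2 groups, a replicate block, no fold threshold and leaving out each library. Replicate numbers were not taken as pairs.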

Additional observations from a re-analysis of the deposited data

How the results depend on the processing

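Pathway counts kept within 1.5 times under DESeq2, RLE normalization, library size only, both filters and fits of 2 groups. Without a fold threshold they were 41 for hnCD16 against CTRL, 73 for FR2 against CTRL, 70 and 71 for FR1 and FR2 against hnCD16, and 44 for FR1 against FR2. With limma on log2(TPM + 1) they were 0 for hnCD16 against CTRL and 3 for FR1 against FR2, and with log2(TPM + 0.1) 0 for hnCD16 against CTRL. Leaving out 1 library gave 0 to 2 for hnCD16 against CTRL, 45 to 46 and 39 to 41 for FR1 and FR2 against CTRL, 40 to 42 and 40 to 41 for FR1 and FR2 against hnCD16, and 5 to 7 for FR1 against FR2. The count of NR3C1 transcripts with changed usage ranged from 0 to 1 for FR1 against CTRL, FR2 against CTRL and FR1 against hnCD16, stayed at 1 for FR2 against hnCD16, and was 0 in the other comparisons. Under a replicate block, the pathway counts were 1, 46, 40, 40, 41 and 7, as without it, for hnCD16, FR1 and FR2 against CTRL, FR1 and FR2 against hnCD16, and FR1 against FR2, and the usage counts were 1 in the 4 FR comparisons and 0 in the others. Same-numbered libraries correlated in their deviations from group means by -0.102 to 0.404 over the 6 comparisons, not above 0.1 in every pair of any, so the numbers were not taken as pairs. For hnCD16 against CTRL the mean was 0.254, against -0.127 for other numbers. No direction of a called named gene reversed. The cause of these changes was not tested.

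FKBP5 stayed between 1.42 and 1.52 for FR1 against hnCD16, and NR3C1 between 0.56 and 0.71. With library size only, the median of all genes shifted to -0.22 for FR1, -0.17 for FR2 and -0.12 for hnCD16 against CTRL. The fitted fold change of HSD11B1 against groups at 0 depends on the prior or pseudocount and is not used. TSC22D3, at 0 to 5 counts, is limited by depth.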
